A study of Mus musculus with 6 samples.

Results

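The genes described are 33 enzymes, transporters and regulators that carry glucose through glycolysis to pyruvate and lactate, or into and out of glycogen. They were taken from a list of symbols by pathway, which was drawn up with earlier results of these data known but whose rule uses no measured value, and their transcripts were summed per gene. The 33 genes stand among 32564 genes in the files, and all 33 were among the 15012 genes that passed the filter on low counts and were tested. By role they comprise 1 glucose transporter (Slc2a1), 9 genes of upper glycolysis, 7 of lower glycolysis, 5 of lactate making and transport, 6 of pyruvate entry into mitochondria and 5 of glycogen turnover.

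RNA sequencing was done on cells that the labels call quiescent neural stem cells (qNSCs), meaning resting stem cells from the lining of the brain's lateral ventricles (the subependymal zone). They were isolated by FACS from the brains of gfap:GFP mice, whose green fluorescent protein is driven by the Gfap promoter, which ordinary astrocytes use as well as stem cells. All 6 libraries came from mice 3 months old, of a strain labelled C56BL/6J, with cells taken 3 days after an injection into the brain ventricles. The vehicle group (3 libraries) had received artificial cerebrospinal fluid, and the antagomir group (3 libraries) an antagomir, a modified oligonucleotide that binds a microRNA and blocks it, directed at miR-204. With no control oligonucleotide among the labels, the blocking of miR-204 and the mere presence of an oligonucleotide cannot be told apart. Whether each replicate is its own animal or a pool is not stated, so the spread behind every p-value may be technical.

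Glycolysis splits glucose into pyruvate in the cytosol, and lactate dehydrogenase converts pyruvate and lactate into each other. In brain tissue, astrocytes hold most of the glycogen, make much lactate and can pass it to neurons through monocarboxylate transporters. Neural stem cells of the subependymal zone share many genes with astrocytes, and quiescent cells are described as relying on glycolysis and on fatty acid oxidation more than dividing progenitors do. Most steps have several isozymes, which are gene copies for the same reaction that differ between tissues, so the choice of isozyme is a feature of a cell type.

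Libraries held 14866453 to 19694409 estimated counts. Levels between libraries are given as CPM (counts scaled to library size with edgeR's TMM factors), levels between genes as TPM (which also divides by transcript length), and differences as log2 fold changes of antagomir over vehicle. A floor of 3 counts equals 0.152 to 0.201 CPM, and this floor covers counting error only. The SE and 95% intervals of fold changes come from edgeR's fit and include the spread between libraries. The libraries also held RNA of other cells: the summed CPM of 10 oligodendrocyte markers was 9701 to 20433 in the vehicle and 15469 to 22033 in the antagomir libraries, beside 1510 to 1812 and 1099 to 1620 for 10 qNSC markers. Vehicle replicate 1 stood apart with 1970 CPM of 10 microglia markers, against 103 to 271 in the other 5 libraries, and the 5 red blood cell markers also summed highest there, at 903 against 13.4 to 350 CPM. The 10 astrocyte markers summed to 8616 to 9430 CPM in the vehicle and 6363 to 8983 CPM in the antagomir libraries, with antagomir replicate 2 the lowest, and 10 of 10 had a negative log2 fold change. The 10 endothelial markers summed to 14.8 to 44.0 CPM, with Itm2a (9.25 to 18.2 CPM) and Pecam1 (4.59 to 10.04 CPM) the highest and Cldn5 and Cdh5 under 1 CPM in all 6 libraries. Cell cycle markers (10 genes) summed to 480, 167 and 155 CPM after vehicle and 553, 447 and 522 CPM after antagomir. Of these, 10 of 10 had a positive log2 fold change, and the sums overlapped only through vehicle replicate 1.

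The sequences that bear on these genes come first. The antagomir was directed at miR-204, and the sequence used for the search was miR-204-5p. It is encoded at chr19:22750610-22750631 on the plus strand of GRCm38.p6, and its seed, bases 2 to 8, is in capitals. The first match below is in the 3′ UTR of Pdk4, a kinase that switches off pyruvate dehydrogenase, and the second in that of Slc16a7, a lactate and pyruvate transporter of neurons. They are shown because they were the only members with such a match, and the capitals mark the letters that pair with the seed, plus, for Slc16a7, the A that follows them in an 8mer.
miR-204-5p: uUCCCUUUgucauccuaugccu
Pdk4: gtcgagttcaAAAGGGAgataa
Slc16a7: aaagaaggctAAAGGGAAaaaa

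Those matches were AAAGGGA (7mer-m8) in Pdk4 and AAAGGGAA (8mer) in Slc16a7, searched on the transcript strand of the annotated 3′ UTR of each gene's most abundant coding transcript. They made 2 of 33 members (6.06%), against 1861 of 13818 tested coding genes (13.5%). The 2 shares were not matched for the length of the 3′ UTR, which ran from 179 bases (Gapdh) to 8742 bases (Slc16a7) among the members. Pdk4 had 77.7, 85.0 and 105 CPM in the vehicle libraries and 96.4, 97.8 and 143 CPM in the antagomir libraries. Its log2 fold change was 0.33 ± 0.20 (SE), with an edgeR adjusted p of 0.949, and the groups overlapped. Slc16a7 was near the bottom of the list, at 4.89 to 6.79 CPM in the vehicle and 4.88 to 6.63 CPM in the antagomir libraries, with a log2 fold change of -0.01 (95% interval -0.88 to 0.85). A match of letters is a description of the sequence and does not show a site in use.

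Pyruvate kinase, the last step of glycolysis, is the member whose 2 forms differ by a cassette of the gene itself. Pkm transcripts carry either the M1 exon, the form of adult muscle and neurons, or the M2 exon, the form of many dividing cells and of astrocytes. The exons are shown because the M2 share below is counted from the transcripts that carry them. Both are 167 bases long in GRCm38 (GENCODE M21), on the plus strand, at chr9:59675029-59675195 for M1 and chr9:59675568-59675734 for M2. Aligned position by position they are identical at 103 positions and differ at 64, and the capitals mark the positions that differ.
M1 exon: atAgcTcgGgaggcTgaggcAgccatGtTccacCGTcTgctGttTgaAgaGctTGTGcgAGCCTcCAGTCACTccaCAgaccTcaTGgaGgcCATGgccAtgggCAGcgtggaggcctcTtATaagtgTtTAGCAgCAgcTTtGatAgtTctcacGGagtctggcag
M2 exon: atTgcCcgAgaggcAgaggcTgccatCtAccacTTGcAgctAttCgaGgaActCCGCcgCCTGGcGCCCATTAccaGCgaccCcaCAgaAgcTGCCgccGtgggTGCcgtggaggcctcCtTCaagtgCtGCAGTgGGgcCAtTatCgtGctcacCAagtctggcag

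In every library the M2 form made up most of the Pkm TPM. Its share of M1 plus M2 was 90.2, 90.8 and 90.7% in the vehicle libraries and 85.8, 86.5 and 91.3% in the antagomir libraries. The means were 90.6% ± 0.339 and 87.9% ± 3.00 (SD, n = 3 each), and an exact two-sided permutation test of the difference gave p = 0.4, where 3 against 3 libraries allow no p below 0.1. Antagomir replicates 1 and 2 lay below all vehicle libraries, and antagomir replicate 3 lay above them, so the difference of -2.70 percentage points ran from -4.42 to -1.66 with a library left out. Pkm as a whole was at 880.0, 962 and 873 CPM after vehicle and 899, 843 and 999.8 CPM after antagomir, with a log2 fold change of 0.01 ± 0.13 (SE). The deposited length of the M1 transcript differs from that in GENCODE M21, so its version in the authors' index may not be the one shown.

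The libraries taken after the antagomir were set against those taken after vehicle, to see which of these transcripts differed. None of the 33 members passed edgeR's quasi-likelihood test at an adjusted p of 0.05, and 0 of the 15012 genes tested did (0.0%). At an unadjusted p under 0.05 there were 0 members, against 616 of all genes (4.1%); DESeq2 called 1 gene of all and no member. A negative log2 fold change was found for 23 members and a positive one for 10. That is 69.7% negative, beside 50.9% of all genes tested, and the median was -0.09 for the members and -0.0062 for all genes. The CPM of the groups did not overlap for 2 members, Pfkm and Gapdh, both lower after antagomir, which is 6.06% of members. Over all genes it did not overlap for 10.5%, with 5.45% lower and 5.07% higher. In TPM, 4 members did not overlap, Pfkm and Gapdh lower and Pfkl and Eno2 higher, beside 10.8% of all genes (3.7% lower and 7.05% higher). With no call, the intervals carry the information: the 95% interval lay within 2-fold either way for 28 members and within 1.5-fold for 20. The members' median SE was 0.169, against 0.268 over all genes tested. Without vehicle replicate 1, the microglia-rich library, 0 members were called and the median was -0.063.

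**Figure D1:**
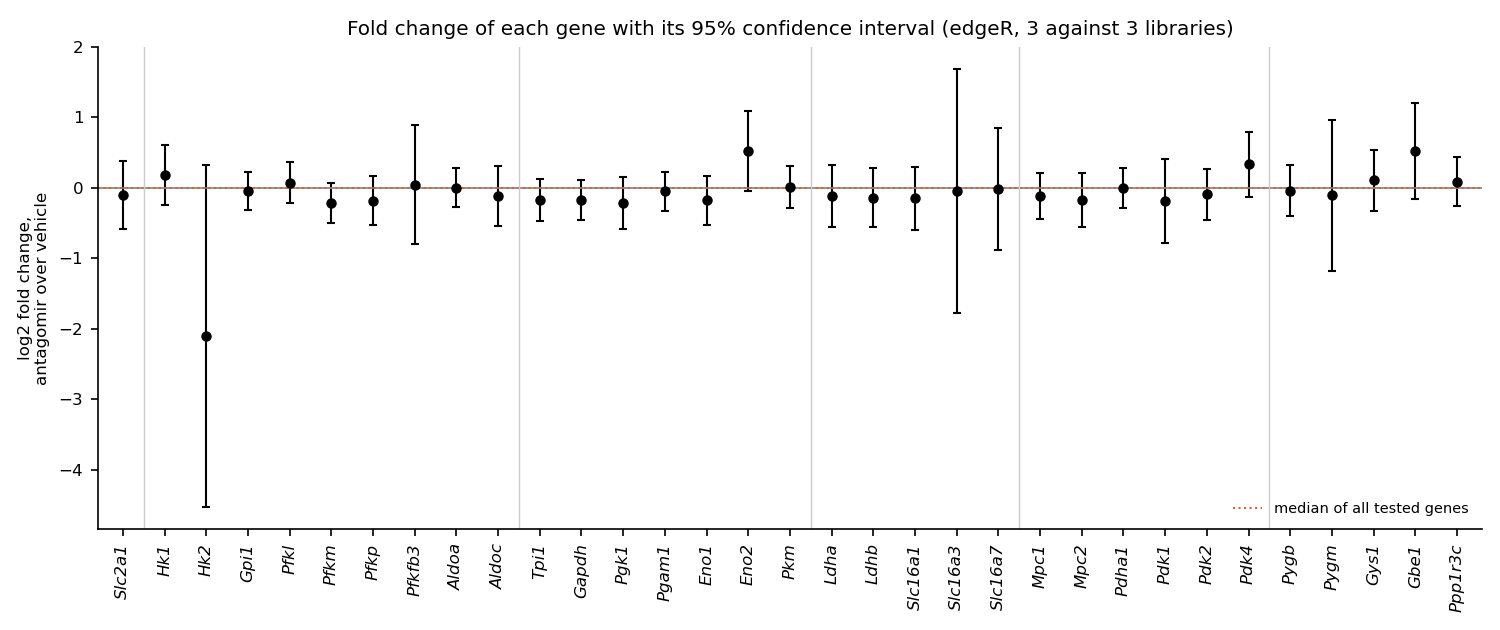
Log2 fold change of antagomir over vehicle for the 33 genes, grouped by role, from edgeR's fit of all 6 libraries, with bars for the 95% interval. Every interval crosses 0, most are narrow, and Hk2 (-2.10) has the widest.

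The list spanned a wide range of levels, from Aldoc with a mean of 1938 TPM to Hk2 with 0.899 TPM. Aldoc was within the top 0.246% of the genes tested, 18 members had a mean above 100 TPM, and 4 (Pygm, Slc16a3, Slc16a7 and Hk2) were under 10 TPM. After Aldoc came Aldoa (1088 TPM), Ldhb (986 TPM), Gapdh (822 TPM) and Pkm (658 TPM). Aldoa (984 to 1156 TPM) and Ldhb (732 to 1184 TPM) overlapped in their ranges over libraries, so their order is not fixed by these data. The 17 enzymes of the chain from glucose phosphorylation to lactate summed to 7622, 7527 and 7216 TPM in the vehicle libraries and 7977, 6368 and 7587 TPM in the antagomir libraries, which is 0.637 to 0.798% of all TPM. The group means were 7455 ± 212 and 7311 ± 839 TPM (SD, n = 3 each), and antagomir replicate 2 was the lowest library.

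**Figure D2:**
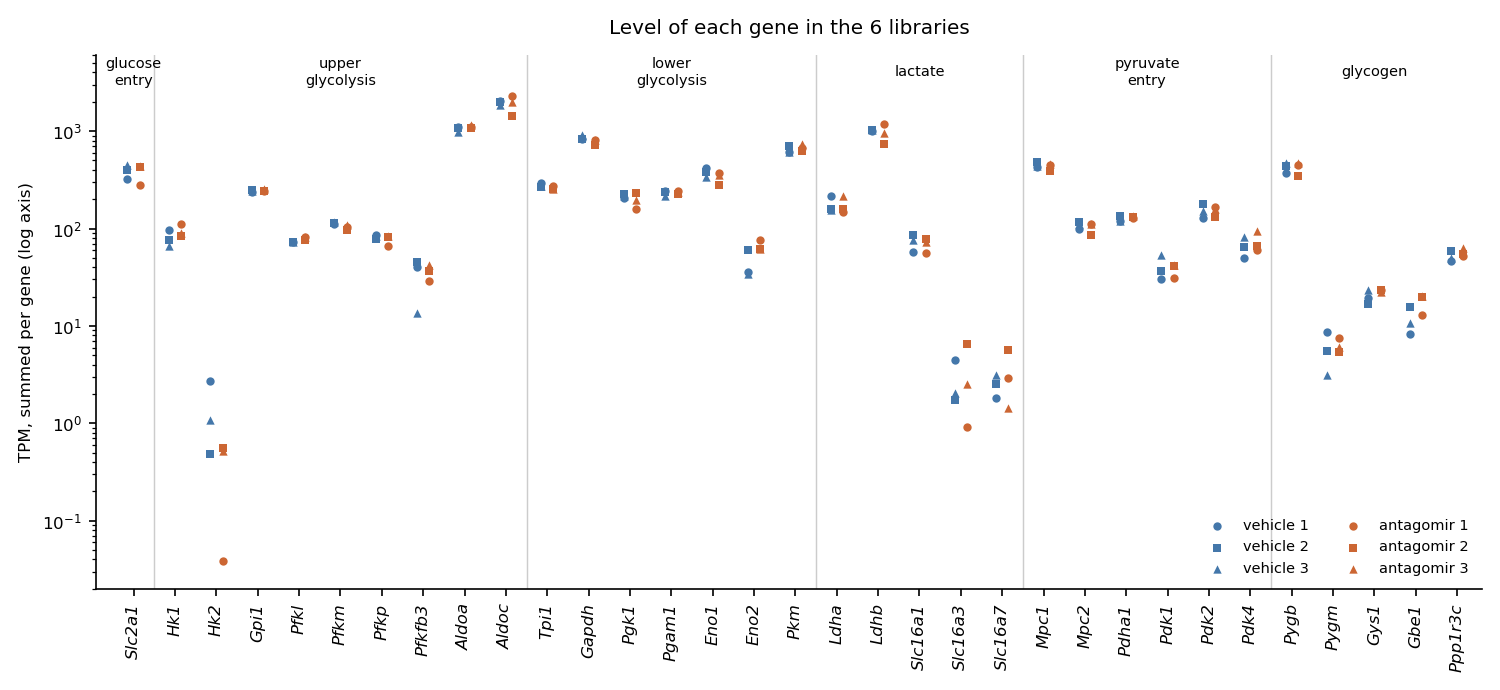
TPM of each of the 33 genes in each of the 6 libraries on a log axis, ordered by role; blue marks vehicle, orange antagomir, and the marker shape gives the replicate. Aldoc sits at the top, at 1419 to 2321 TPM, followed by Aldoa and Ldhb near 1000 TPM. The Hk2 point of antagomir replicate 1 lies far below those of the other libraries.

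Glucose enters through Slc2a1, the facilitative transporter known as GLUT1, which is also abundant in the endothelium of the blood-brain barrier. It measured 503, 601 and 701 CPM after vehicle and 407, 626 and 648 CPM after antagomir. The groups overlapped, and the log2 fold change was -0.10 ± 0.21 (SE), with an edgeR adjusted p of 0.963. The lowest library of each group was replicate 1, at 503 and 407 CPM. Ependymal markers (10 genes, 10 of them with a negative log2 fold change) summed lowest in those same libraries, to 2154 and 1511 CPM against 2431 to 2836 CPM in the other 4. The part of ependymal RNA in the Slc2a1 values was not tested. In bulk RNA, fewer cells of a type and less RNA per cell cannot be told apart, here and in all results below.

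Hexokinase phosphorylates glucose and traps it in the cell, and most of the hexokinase RNA here was Hk1, the form of adult brain. Outside the list, Hkdc1 averaged 18.1 TPM, against 87.5 TPM for Hk1. Hk1 measured 213, 162 and 151 CPM after vehicle and 235, 177 and 184 CPM after antagomir, with a log2 fold change of 0.18 ± 0.18 (SE) and an edgeR adjusted p of 0.95. Its share of Hk1 plus Hk2 was 97.2 to 99.97% of TPM. Hk2, the inducible form of muscle, fat and dividing cells, measured 8.33, 0.856 and 3.66 CPM after vehicle and 0.122, 1.20 and 1.64 CPM after antagomir. These values rest on 148, 14 and 72 counts, and on 2, 18 and 29 counts, so antagomir replicate 1 is below the floor of 3 counts.

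Vehicle replicates 1 and 3 were above all antagomir libraries for Hk2, and vehicle replicate 2 lay among them. Its log2 fold change of -2.10 ± 1.05 (SE) was the largest in size among the members, and its 95% interval ran from -4.53 to 0.32, with an edgeR adjusted p of 0.949. The highest library, vehicle replicate 1, was also the one with 1970 CPM of microglia markers. Vehicle replicate 3, the next highest for Hk2, had 135 CPM of those markers, less than the 238 CPM of vehicle replicate 2. The part of microglia in the Hk2 values was not tested. Without vehicle replicate 1 the log2 fold change of Hk2 was -1.19. In TPM Hk2 was at 2.73 or below in all 6 libraries.

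Gpi1, which turns glucose 6-phosphate into fructose 6-phosphate, was among the steadiest members, at 263 to 270.1 CPM after vehicle and 251 to 269 CPM after antagomir. Phosphofructokinase makes the committed step of glycolysis, and all 3 of its subunit genes were present at like levels. Pfkm, the muscle-type subunit (chr15:98092589-98132451, plus strand), was highest, with 187, 185 and 199 CPM after vehicle and 166, 156 and 171 CPM after antagomir. Every antagomir library was below every vehicle library. The means were 190.2 ± 7.31 and 164 ± 7.49 CPM (SD, n = 3 each), the log2 fold change -0.21 ± 0.12 (SE), and the edgeR adjusted p 0.949.

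Pfkp, the platelet-type subunit that is prominent in brain, measured 140.3, 111 and 124 CPM after vehicle and 98.7, 119 and 115 CPM after antagomir, with overlapping groups and a log2 fold change of -0.18 ± 0.15 (SE). Pfkl, the liver-type subunit, measured 133 to 152 CPM and 145 to 159 CPM, with a log2 fold change of 0.08. On the TPM scale, in contrast, Pfkl did not overlap between the groups (72.1 to 72.5 TPM after vehicle, 75.4 to 81.0 TPM after antagomir). Within phosphofructokinase TPM, Pfkm took 38.1 to 42.9% and Pfkp 26.3 to 32.3% over the 6 libraries. The Pfkl share was 26.4 to 27.4% after vehicle and 29.6 to 32.2% after antagomir, without overlap, and it was not among the ratios tested. Pfkfb3 makes fructose 2,6-bisphosphate, the main activator of phosphofructokinase, and varied within both groups, at 26.7 to 55.5 CPM and 25.4 to 56.8 CPM.

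Aldolase splits the sugar phosphate into smaller ones, and Aldoc, the brain isozyme used as an astrocyte marker, was the most abundant member. Aldoc (chr11:78322968-78327781, plus strand) measured 2013, 1873 and 1844 CPM after vehicle and 2165, 1315 and 1822 CPM after antagomir. Antagomir replicate 1 was the highest of all 6 libraries and antagomir replicate 2 the lowest. The log2 fold change was -0.11 ± 0.19 (SE; edgeR adjusted p 0.958), and without antagomir replicate 2 it was 0.069. Aldoa, the isozyme of most tissues, was steady at 760.3 to 861 CPM after vehicle and 791 to 839 CPM after antagomir, with a log2 fold change of 0.0020 (95% interval -0.28 to 0.28). Aldoc was therefore 56.7 to 67.5% of the TPM of Aldoc plus Aldoa, with antagomir replicate 2 at the low end.

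In lower glycolysis, 5 of the 7 members had a negative log2 fold change and 2 (Eno2 and Pkm) a positive one. Tpi1, triosephosphate isomerase, measured 242, 210.3 and 239 CPM after vehicle and 218, 199.5 and 197 CPM after antagomir, with a log2 fold change of -0.17 ± 0.13 (SE). Its groups overlapped through vehicle replicate 2 and antagomir replicate 1. Gapdh, which makes NADH at the next step, measured 328, 305 and 343 CPM after vehicle and 288, 277 and 302 CPM after antagomir. All 3 antagomir libraries were below all 3 vehicle libraries, by a log2 fold change of -0.17 ± 0.12 (SE; edgeR adjusted p 0.949).

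The Gapdh count is uncertain, since 92.1% of the 31-base words in its most abundant coding transcript also occur in transcripts of other genes. Its 119 annotated pseudogenes that share at least 100 such words held 11020 to 20672 counts per library, or 72.7 to 76.2% of the reads assigned to Gapdh and these copies together. With those counts added, Gapdh measured 1306, 1173 and 1393 CPM after vehicle and 1206, 1015 and 1138 CPM after antagomir. The groups then overlapped, and the log2 fold change was -0.21 ± 0.13 (SE). In addition, 72.1% of Gapdh TPM was assigned to a short transcript annotated as a retained intron, and its coding transcripts alone averaged 198 TPM in place of 822 TPM.

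Pgk1, phosphoglycerate kinase, the first step that returns ATP, measured 215, 230.3 and 226 CPM after vehicle and 157, 229 and 193 CPM after antagomir. Antagomir replicates 1 and 3 were below all vehicle libraries and antagomir replicate 2 was not. Its log2 fold change was -0.21 ± 0.16 (SE). Pgk1 shared 68.3% of its words with other genes, and its 2 pseudogenes held 13.7 to 23.03% of the combined reads. Pgam1, phosphoglycerate mutase, was steady at 228 to 252 CPM and 223 to 238 CPM, a log2 fold change of -0.05.

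Enolase, the step before pyruvate kinase, is made by Eno1 in most cells and by Eno2 in neurons. Eno1 measured 438, 378 and 358 CPM after vehicle and 384, 295 and 359 CPM after antagomir, with a log2 fold change of -0.18 ± 0.15 (SE). Eno2 (chr6:124760053-124769673, minus strand) measured 48.7, 74.8 and 41.1 CPM after vehicle and 95.5, 71.7 and 69.1 CPM after antagomir. Its CPM groups overlapped only through vehicle replicate 2, and its TPM groups did not overlap (34.0 to 60.4 and 61.0 to 75.6 TPM). Coding transcripts held 66.1 to 89.3% of Eno2 TPM, and their TPM did overlap between the groups (25.1 to 42.0 and 40.4 to 67.5 TPM). The log2 fold change was 0.52 ± 0.25 (SE, 95% interval -0.05 to 1.09). That was the smallest p among the members, 0.0689 unadjusted and 0.949 adjusted with edgeR.

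The ratio of Eno2 to Eno1 TPM was 0.0863, 0.160 and 0.0996 in the vehicle libraries and 0.203, 0.217 and 0.172 in the antagomir libraries. Every antagomir library was above every vehicle library, and Eno2 took 10.3% ± 3.10 of the TPM of Eno1 plus Eno2 after vehicle and 16.4% ± 1.59 after antagomir (SD, n = 3 each). The other enolases, Eno4 (mean 69.9 TPM) and Eno3 (9.59 TPM), are outside the list and that share. The difference of log2 ratios was 0.82, with an exact two-sided permutation p = 0.1, the smallest that 3 against 3 libraries allow. Of the 9 isozyme ratios tested, that of enolase alone did not overlap between the groups, and with a smallest p of 0.1 none could pass a threshold of 0.05. Of 10 neuroblast markers 10 had a positive log2 fold change, and they summed to 663 to 1678 CPM after vehicle and 1086 to 2727 CPM after antagomir. Mature neuron markers (9 measured) summed to 652 to 851 CPM and 668 to 1192 CPM, with 8 of 9 positive. Both sums were highest in antagomir replicate 1, where Eno2 was also highest. Vehicle replicate 1 had the next highest sums, 1678 and 851 CPM, and the lowest ratio, 0.0863. Vehicle replicate 2 had the lowest neuroblast sum, 663 CPM, and the highest ratio of the vehicle libraries, 0.160. Oligodendrocyte markers summed to 9701, 20433 and 15013 CPM after vehicle and 15469, 22033 and 20742 CPM after antagomir, with 10 of 10 positive. Their order was that of the ratio in the vehicle libraries but not in the antagomir libraries. The parts of neuronal and of oligodendrocyte RNA in the Eno2 to Eno1 ratio were not tested. Without antagomir replicate 1 the log2 fold change of Eno2 was 0.36.

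**Figure D3:**
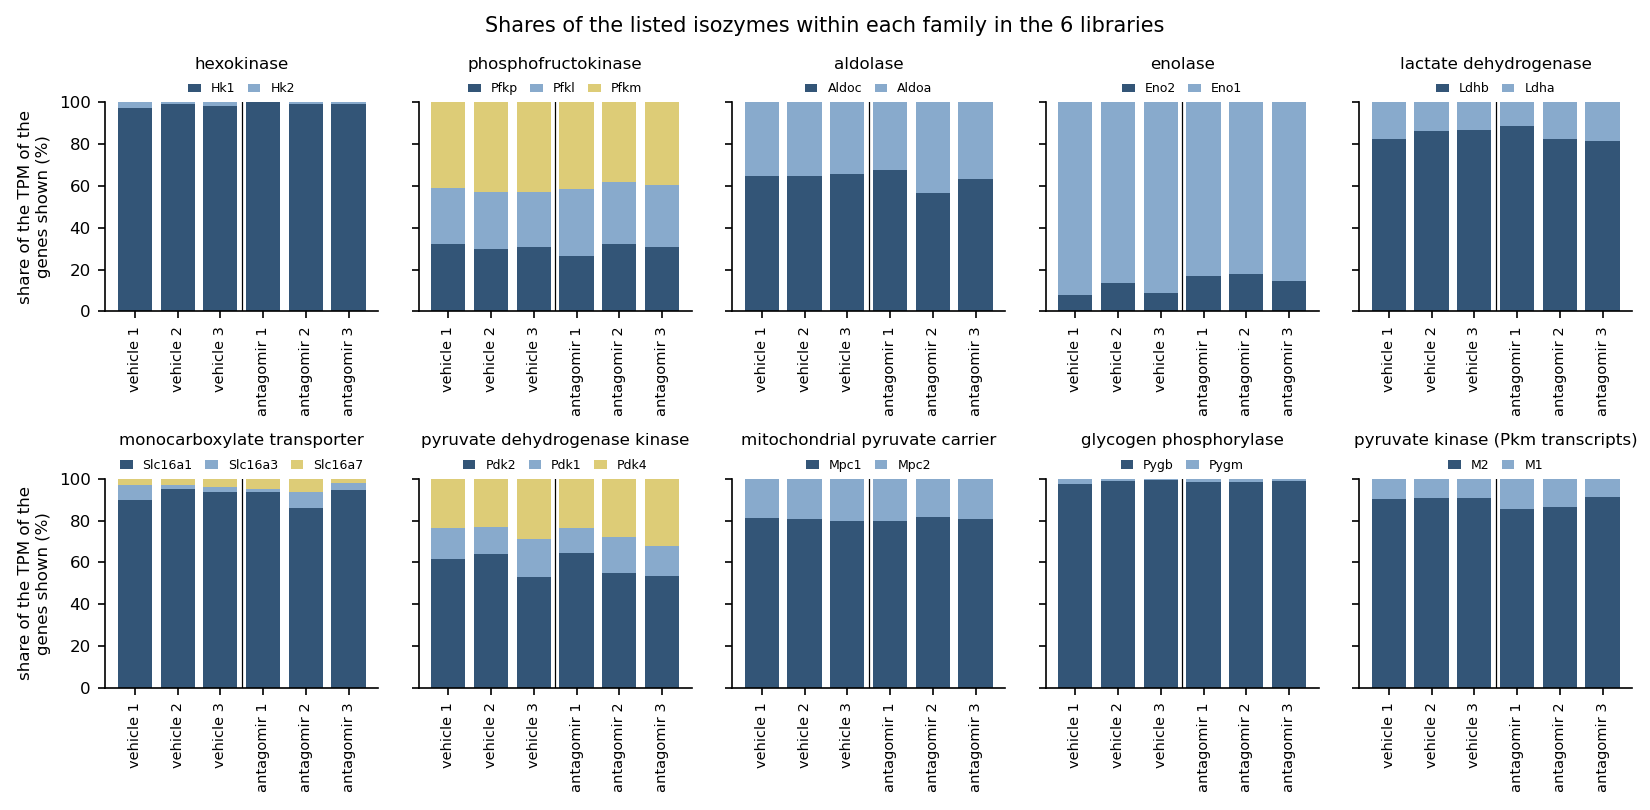
Share of each isozyme in the summed TPM of the genes shown for its family, in percent, for 9 families and for the M1 and M2 transcripts of Pkm, with a stacked bar per library and a line between the 3 vehicle and 3 antagomir libraries. The Eno2 part of the enolase bars is 7.95 to 13.8% in the vehicle and 14.7 to 17.8% in the antagomir libraries, while the other families overlap between the groups in the ratio tested.

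Lactate dehydrogenase is built from LDHA subunits, which favour making lactate, and LDHB subunits, which favour its use. Ldhb dominated, with 81.5 to 88.8% of the TPM of Ldhb plus Ldha. It measured 684, 663 and 692 CPM after vehicle and 769, 470.4 and 613 CPM after antagomir, with a log2 fold change of -0.14 ± 0.18 (SE). As for Aldoc, antagomir replicate 1 was the highest and antagomir replicate 2 the lowest of the 6 libraries. Without antagomir replicate 2 the Ldhb value was 0.031. Ldha measured 182, 129 and 137 CPM after vehicle and 122, 126 and 167 CPM after antagomir, a log2 fold change of -0.11 ± 0.19 (SE), and the groups overlapped. The Ldhb to Ldha ratio was 4.71 to 6.52 after vehicle and 4.42 to 7.93 after antagomir (exact two-sided permutation p = 0.8).

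Lactate leaves and enters cells through monocarboxylate transporters, and Slc16a1 (MCT1, of astrocytes, oligodendrocytes and endothelium) gave 86.3 to 95.3% of the TPM of the 3 members. It measured 153 to 222 CPM after vehicle and 142 to 197 CPM after antagomir, a log2 fold change of -0.15 (95% interval -0.59 to 0.29). Slc16a3 (MCT4, the exporter of strongly glycolytic cells) was low, at 2.14 to 6.47 CPM and 1.34 to 8.10 CPM. Its interval, from -1.78 to 1.69, was too wide to read a direction. All 5 members of this group had a negative log2 fold change, from -0.15 to -0.01, and none was called.

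Pyruvate enters mitochondria through a carrier made of MPC1 and MPC2 and is then oxidised by pyruvate dehydrogenase, which the PDK kinases inhibit. Mpc1 measured 178 to 197 CPM after vehicle and 149 to 184 CPM after antagomir. Mpc2 measured 50.7, 60.0 and 57.7 CPM after vehicle and 51.8, 42.6 and 54.9 CPM after antagomir, with a log2 fold change of -0.17 ± 0.17 (SE). Mpc1 kept 79.8 to 82.0% of carrier TPM in the 6 libraries, the narrowest share of the 9 families after glycogen phosphorylase. Pdha1, the catalytic subunit of pyruvate dehydrogenase, was at 195 to 215 CPM and 197 to 208 CPM, a log2 fold change of -0.01 (95% interval -0.29 to 0.28).

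Of the kinases, Pdk2 was the most abundant, with 52.8 to 64.4% of the TPM of the 3 members. Pdk3, outside the list, averaged 17.8 TPM against 152 TPM for Pdk2. Pdk2 measured 164 to 218 CPM after vehicle and 159 to 192 CPM after antagomir. Pdk4, which is induced by fasting and fatty acid use, took 22.96 to 28.6% after vehicle and 23.6 to 32.1% after antagomir. Pdk1, a hypoxia-induced kinase, measured 67.6 to 131 CPM and 65.8 to 97.8 CPM, with a log2 fold change of -0.19 (95% interval -0.78 to 0.41). Pdk4 was thus the only member of pyruvate entry with a positive log2 fold change, and its interval ran from -0.13 to 0.80.

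Glycogen is built by glycogen synthase and branching enzyme and broken down by phosphorylase. Pygb, the brain phosphorylase, was the most abundant glycogen gene, at 862 to 1047 CPM after vehicle and 762 to 1035 CPM after antagomir, and it held 97.8 to 99.3% of the TPM of Pygb plus Pygm. Pygl, the liver phosphorylase, is outside the list and averaged 40.4 TPM, against 426 TPM for Pygb and 6.05 TPM for Pygm. Pygm, the muscle phosphorylase that astrocytes also make, was at 5.33 to 14.7 CPM and 6.09 to 11.5 CPM. Gys1, the synthase, measured 34.1 to 49.96 CPM and 44.2 to 46.1 CPM. Gbe1, the branching enzyme, measured 12.5, 25.1 and 19.3 CPM after vehicle and 21.6, 32.5 and 27.6 CPM after antagomir, with a log2 fold change of 0.52 ± 0.30 (SE; edgeR adjusted p 0.949). Vehicle replicate 1 was the lowest and antagomir replicate 2 the highest, and the groups overlapped through vehicle replicate 2. The oligodendrocyte marker sum had the same order over the 6 libraries, from 9701 CPM in vehicle replicate 1 to 22033 CPM in antagomir replicate 2. The part of oligodendrocyte RNA in the Gbe1 values was not tested. Ppp1r3c, which brings a phosphatase to glycogen and is abundant in astrocytes, measured 74.5, 90.7 and 80.2 CPM after vehicle and 79.3, 84.5 and 96.8 CPM after antagomir, a log2 fold change of 0.09 ± 0.15 (SE).

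The libraries differed among themselves as much as the groups did. Each member's log2 CPM was centred on its mean over the 6 libraries, and the median deviation over the 33 members was 0.008, 0.045 and 0.071 for the vehicle libraries and -0.014, -0.060 and 0.039 for the antagomir libraries. Antagomir replicate 2 held the lowest value of 13 members and antagomir replicate 1 that of 8. The vehicle libraries held the lowest value of 5, 1 and 4 members. Antagomir replicate 2 was also the library with the lowest astrocyte marker sum, at 6363 CPM, and the part of astrocyte RNA in the members' values was not tested.

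**Figure D4:**
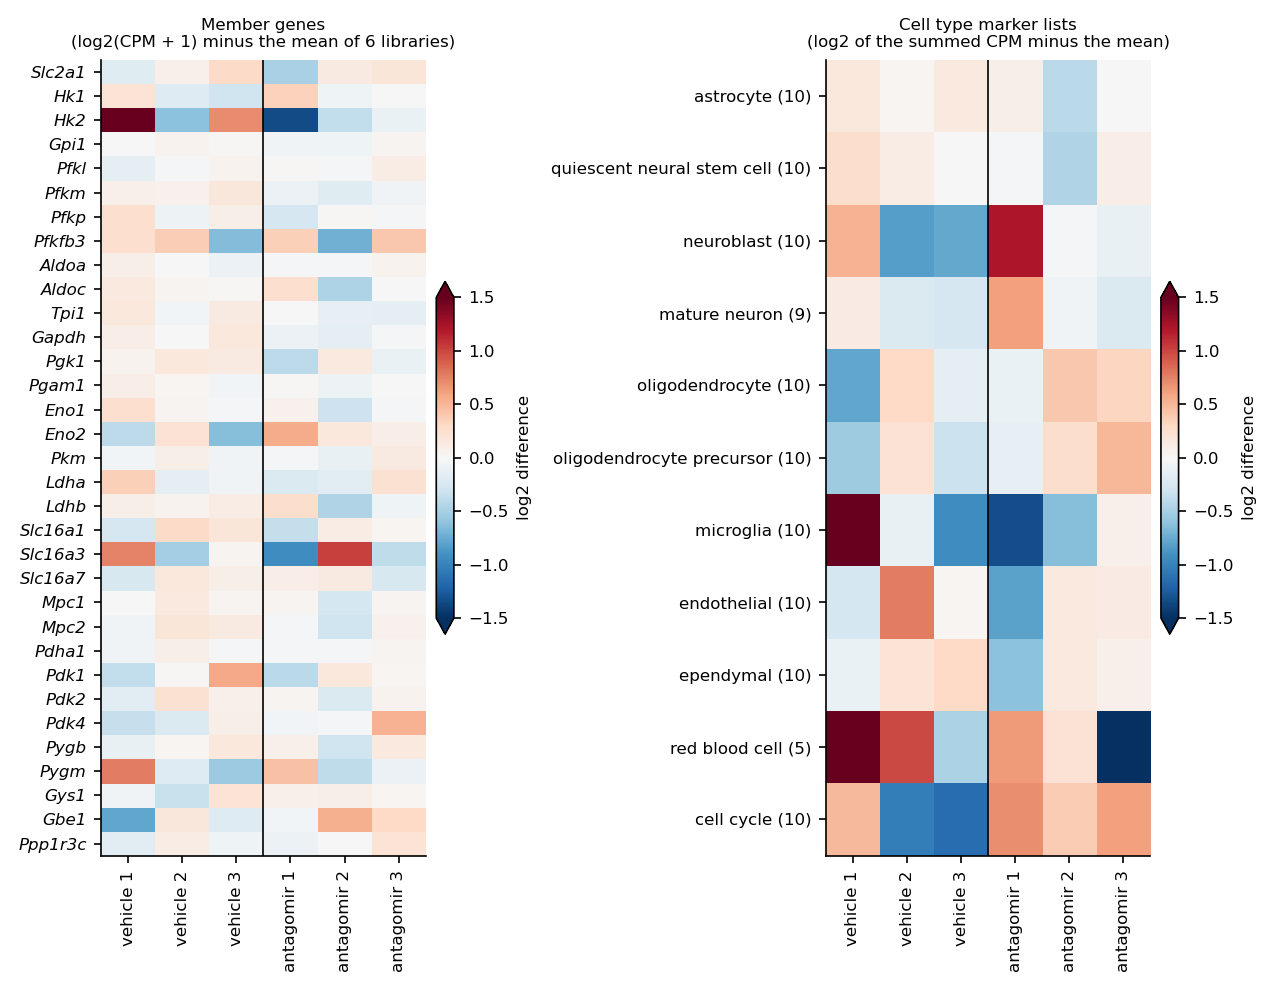
Heat maps with a column per library: on the left log2(CPM + 1) of each of the 33 genes minus its mean over the 6 libraries, on the right log2 of the summed CPM of each marker list (number of genes in brackets) minus its mean. Red is above and blue below the mean, and colours saturate at 1.5; most gene cells are pale, and the astrocyte row is lowest in antagomir replicate 2 (6363 CPM) while the microglia row is highest in vehicle replicate 1 (1970 CPM).

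Some members' levels depend on how reads were divided between transcripts. For Slc2a1, 56.3% of TPM was assigned to a transcript annotated as subject to nonsense-mediated decay, and coding transcripts had 42.6 to 44.8%. Coding transcripts held 45.4 to 64.1% of Gpi1, 22.6 to 76.8% of Pfkfb3, 46.0 to 61.5% of Pdk1 and 66.1 to 89.3% of Eno2. Besides Gapdh and Pgk1, Eno1 shared 73.0% of its 31-base words with other genes, and its 2 pseudogenes held 17.1 to 19.7% of the combined reads. Words were taken from each gene's most abundant coding transcript alone. In all, 10 members shared over 20% of their words and 21 shared under 2%. A second identifier with the symbol Aldoa held 0.0574 to 0.253% of that symbol's counts and was left out.

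Genes around these pathways, in lists written from general knowledge, showed 0 calls as well. Of 27 other glycolysis genes 23 were tested, with 13 positive and 10 negative log2 fold changes and a median of 0.07. Pfkfb1, a liver and muscle regulator of phosphofructokinase, had 0.161 ± 0.233 CPM after vehicle and 1.29 ± 0.641 CPM after antagomir (SD, n = 3 each), from 8 and 65 counts in all. G6pc3, the ubiquitous glucose 6-phosphatase, had 54.7 ± 5.20 and 45.4 ± 4.27 CPM. Of 27 other lactate and pyruvate genes 23 were tested, 8 positive and 15 negative, median -0.09. Dld, the shared dehydrogenase subunit of pyruvate dehydrogenase, had 125 ± 8.19 and 98.4 ± 4.55 CPM, without overlap of the groups (log2 fold change -0.35, edgeR adjusted p 0.949). Ldhd, which oxidises D-lactate, had 19.0 ± 5.78 and 11.5 ± 1.47 CPM.

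Of 32 other glycogen genes 29 were tested, 9 positive and 20 negative, with a median of -0.10. Ppp1r3d, a glycogen-targeting phosphatase subunit like Ppp1r3c, had 24.8 ± 2.92 CPM after vehicle and 16.1 ± 2.02 CPM after antagomir, without overlap (log2 fold change -0.62, edgeR adjusted p 0.949). Phka1, a phosphorylase kinase subunit, had 97.97 ± 27.5 and 69.4 ± 3.25 CPM. At an unadjusted p under 0.05 there were 1 glycolysis gene, 2 lactate and pyruvate genes and 1 glycogen gene, beside the 4.1% of all genes.

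Many glycolytic genes are known targets of the hypoxia-inducible factors, whose core element has the letters ACGTG, so RefSeq promoter windows (GRCm38.p6, 250 bases before to 50 after the start) were searched on both strands. The letters occurred in 18 of the 32 members with a window (56.2%), against 28.3% of the 11309 tested genes with a window and 21.8% of all 27025. Among genes with a single window they occurred in 47.6% of members and 25.1% of tested genes. Among the tested genes with at least as many CG pairs as the members' median of 21, the share was 32.6%. A few stretches of 41 bases are shown for members known as such targets, written on the gene's own strand and with a match on that strand in capitals. The Ldha stretch also holds matches on the opposite strand, which are not in capitals. They come from chr7:46845739-46845779 (Ldha), chrX:106186932-106186972 (Pgk1), chr4:119108691-119108731 (Slc2a1) and chr19:41911739-41911779 (Pgam1), all on the plus strand.
Ldha: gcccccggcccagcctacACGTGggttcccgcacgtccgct
Pgk1: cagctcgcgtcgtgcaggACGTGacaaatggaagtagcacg
Slc2a1: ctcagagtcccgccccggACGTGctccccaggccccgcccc
Pgam1: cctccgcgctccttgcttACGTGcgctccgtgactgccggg

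These 4 genes had log2 fold changes of -0.11, -0.21, -0.10 and -0.05, in the order shown, and none was called. In a list of 24 other hypoxia regulators and targets, all 24 were tested, with 12 positive and 12 negative log2 fold changes, a median of 0.0047 and 0 calls. Ankrd37, a hypoxia target, had 11.7 ± 1.81 CPM after vehicle and 6.38 ± 0.493 CPM after antagomir (SD, n = 3 each), without overlap and with a log2 fold change of -0.87 (edgeR adjusted p 0.949). P4ha1, a collagen prolyl hydroxylase, had 105 ± 24.8 and 78.7 ± 16.2 CPM. A match in a promoter window is a description of its letters and not a site shown to be bound.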

How the data were processed

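Per the labels' protocols, cDNA of the 6 libraries was made by SMART-Seq v4 and read as 100 bp pairs; this kit keeps no strand information. kallisto, sleuth and the build mm10 are named, without versions, in the submitters' processing notes. Per the file headers, each deposited estimated count (expected count) is the number of fragments kallisto gave to a transcript, with no normalization. The deposited TPM divide them by effective length, per the file headers. Reads that fit several transcripts are split by kallisto's model, which makes members with pseudogenes uncertain.

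Of 99567 transcripts, 98294 matched GENCODE M21 by identifier without version, and the other 1273 (0.524 to 0.586% of counts) were left out. Counts were summed per gene and rounded. The test was edgeR's (4.0.16, R 4.3.3) robust quasi-likelihood test of group on all 6 libraries, after TMM scaling and filterByExpr (minimum count 10). Benjamini-Hochberg adjustment ran over 15012 genes. The common coefficient of variation was 36.2%. The script was tested on simulated data with genes changed by known folds. It called 0 of 49 genes changed 1.5-fold, 15 of 50 changed 2-fold, 30 of 49 changed 4-fold and 40 of 48 changed 8-fold. Of 14524 unchanged genes it called 9. Chi-square per gene between libraries was 23.8 to 100.4, so none was a repeat of another.

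Isozyme ratios are log2 ratios of TPM, compared by an exact two-sided permutation test. Members, lists and tests were chosen with earlier results of these data known. Groups come from the treatment group label, because the field for the treatment protocol gives the antagomir in each of the 6. Full values are given for the 12 members with the smallest p and for Aldoc, Ldha, Ldhb, Hk1, Hk2, Slc2a1, Pkm, Ppp1r3c and Pdk4, and, in each list of other genes, for the 2 with the smallest p. Alternatives were RLE factors, DESeq2 1.42.0, limma-voom (limma 3.58.1), limma on log2(TPM + 1), a replicate block, other filters, leaving out each library and, added after seeing the data, pseudogene counts.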

Additional observations from a re-analysis of the deposited data

How the results depend on the processing

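No member was called under any of the 14 alternative settings, and the smallest adjusted p of a member was 0.555, with the replicate block in edgeR. Of 33 members, 16 kept the sign of their log2 fold change in every setting. Members at an unadjusted p under 0.05 numbered 0 in the edgeR fit (4.1% of all genes), 1 with DESeq2 (Hk2; 5.20%), 1 each with limma on log2(TPM + 1), without a filter on low counts and with limma-voom (Eno2; 4.03 to 4.91%), and 3 with the replicate block (Eno2, Pdk4 and Gbe1), where 8.55% of all genes were at that p. Leaving out a library gave 0 to 3, the 3 without vehicle replicate 2 (Hk2, Eno2 and Gbe1), where 4.31% of all genes were. Whether the replicate numbers pair the samples was not settled. Deviations of same-numbered libraries correlated at 0.28, 0.13 and 0.068, and those of differently numbered libraries at -0.27 to 0.21. Vehicle replicates 1 and 2 correlated best with the antagomir library of the same number, and vehicle replicate 3 with antagomir replicate 2 (0.21). The block changed no call.

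The members' median was -0.0067 with limma on log2(TPM + 1), where the median over all genes moved to 0.044, and -0.12 to -0.011 with a library left out. Between 3 and 7 members did not overlap with a library left out, where 16.9 to 27.0% of all genes did not. On the log2(TPM + 1) scale the sign reversed for Gpi1 (0.021), Pgam1 (0.019), Slc16a3 (0.051), Slc16a7 (0.21), Pdha1 (0.070) and Pygm (0.19). It also reversed for Pdha1 without a filter (0.0037) and for Pygm with limma-voom (0.0086). With protein-coding transcripts alone, the difference of isozyme log2 ratios reversed for the monocarboxylate transporters (0.15), the pyruvate carrier (-0.018) and glycogen phosphorylase (0.011). The cause was not tested.

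Leaving out a library reversed the log2 fold change of 15 members, with ranges of -0.030 to 0.056 for Aldoa, -0.29 to 0.069 for Aldoc, -0.016 to 0.27 for Gys1, -0.26 to 0.065 for Ldha, -0.33 to 0.031 for Ldhb, -0.026 to 0.040 for Pdha1, -0.38 to 0.11 for Pdk1, -0.18 to 0.011 for Pdk2, -0.20 to 0.34 for Pfkfb3, -0.044 to 0.076 for Pkm, -0.11 to 0.090 for Pygb, -0.39 to 0.46 for Pygm, -1.11 to 0.45 for Slc16a3, -0.13 to 0.13 for Slc16a7 and -0.21 to 0.080 for Slc2a1. With a library left out, the differences of isozyme log2 ratios, antagomir minus vehicle, changed as well. They ran from -0.31 to 0.022 for aldolase, -0.70 to 0.20 for glycogen phosphorylase and -0.36 to 0.063 for lactate dehydrogenase. The ranges were -0.016 to 0.076 for the pyruvate carrier, -0.53 to 0.25 for the monocarboxylate transporters and -0.16 to 0.045 for phosphofructokinase. For the pyruvate dehydrogenase kinases the difference ran from -0.31 to 0.024. The enolase difference stayed between 0.64 and 1.08 and the hexokinase difference between 1.21 and 3.33. Hk2 was not tested with the filter at a mean count of 50. Hk2, Slc16a3, Slc16a7 and Pygm are the members whose few counts limit them most.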
